A study of Mus musculus with 8 samples.

Results

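The genes described here are 35 genes of glycolysis and of the response to low oxygen, read in the transcriptomes of mouse regulatory T cells (Tregs). They were chosen by name from a count table of 55011 gene symbols, for what their products do. They comprise 18 glycolytic enzymes, 4 glucose and lactate transporters, 4 regulators of glycolytic flux, 3 genes of oxygen sensing and 6 targets of the hypoxia response. Of the 35, 34 were among the 12414 genes with enough counts to be tested, and the angiogenic growth factor gene Vegfa was not. The 8 RNA sequencing libraries came from skin and spleen of young mice, labelled day 13 in the sample titles and 2 weeks in the series' design text, and held 1000 sorted cells each. They formed 4 groups of 2. WT skin and WT spleen were Tregs of Pparg+/+ Foxp3-Cre mice, and KO skin and KO spleen were Tregs of Ppargf/f Foxp3-Cre mice. All mice thus carried Foxp3-Cre, a recombinase expressed from the Treg gene Foxp3, and the genotypes differed in whether Pparg was floxed. Pparg encodes PPARγ, a nuclear receptor for fatty acid ligands. The deletion is made in Foxp3-expressing cells of any tissue, so it is not particular to skin. The labels do not give the number of animals behind a library or the markers used for sorting.

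Glycolysis turns glucose into pyruvate, and lactate dehydrogenase can reduce pyruvate to lactate, which leaves the cell through monocarboxylate transporters. Activated and dividing T cells use this route heavily, whereas resting T cells rely more on mitochondrial respiration. Under low oxygen the prolyl hydroxylases encoded by the Egln genes lose activity, HIF-1α protein is no longer degraded, and HIF complexes bind sites with the core letters ACGTG or GCGTG near many glycolytic genes. HIF-1α is regulated mainly as a protein, so the Hif1a transcript is no measure of its activity.

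Levels are given per library as CPM, counts scaled to a common library size with TMM factors, in the order replicate 1 and replicate 2. Pparg stood at 75.7 and 59.8 CPM in skin for WT and 8.46 and 13.3 for KO, and 22.5 and 12.3 in spleen for WT and 2.16 and 1.66 for KO. It was lower in KO, by a log2 fold change of -2.59 ± 0.326 in skin (edgeR adjusted p = 6.09e-04) and -2.89 ± 0.394 in spleen (adjusted p = 0.00418). Library totals ran from 3115832 to 4466963 counts. Foxp3 was present in all libraries, with skin libraries at 260.8 to 380.1 CPM and spleen libraries at 174 to 203 CPM. In each group replicate 1 carried Xist (1634 to 2475 counts, against 0 or 1 in replicate 2) and replicate 2 carried Y-linked genes, so the 2 libraries of a group came from animals of different sex and the spread between replicates includes sex. Beyond that the labels do not say how replicates were made, so the p-values stand for no more than the variation among these particular libraries. Markers of keratinocytes, myeloid cells, fibroblasts, erythroid cells and muscle summed to at most 22.3 CPM in any library, and Pdgfra and Myh4 were at 0 in all 8. Defining B cell and endothelial genes were also at or near 0 (Ms4a1 and Pax5 at most 1.19 CPM, Cdh5 and Vwf at most 0.603 CPM), and the sums of these lists (18.2 to 45.6 CPM and 90.03 to 370.8 CPM) were mostly Cd79b and Pecam1. The CD8 and NK list summed to 8.19 to 29.6 CPM and the melanocyte list to 8.15 to 36.6 CPM, the latter mostly Pmel.

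The promoters of the members that differed most clearly between the tissues are shown first, because the HIF core letters can be read in them. Of the 35 genes 33 had an entry in the RefSeq promoter table (build GRCm38.p6, 250 bases before to 50 after the first listed start). The 6 printed here were taken in order of smallest adjusted p over the 6 comparisons described below. Capitals mark ACGTG or GCGTG on either strand, so CACGT and CACGC appear where the match is on the other strand, and overlapping matches run together. They are the promoters of Aldoa (chr7:126800398-126800697 on the minus strand), Tpi1 (chr6:124814109-124814408 on the minus strand), Pkm (chr9:59656326-59656625 on the plus strand), Gapdh (chr6:125165724-125166023 on the minus strand), Slc16a3 (chr11:120948817-120949116 on the plus strand) and Ldha (chr7:46845554-46845853 on the plus strand).
Aldoa: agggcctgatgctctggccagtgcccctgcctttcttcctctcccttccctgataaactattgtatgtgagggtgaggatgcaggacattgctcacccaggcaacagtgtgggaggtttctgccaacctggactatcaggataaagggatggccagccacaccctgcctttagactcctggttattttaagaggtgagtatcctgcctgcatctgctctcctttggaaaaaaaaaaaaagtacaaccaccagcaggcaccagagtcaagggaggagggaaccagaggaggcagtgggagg
Tpi1: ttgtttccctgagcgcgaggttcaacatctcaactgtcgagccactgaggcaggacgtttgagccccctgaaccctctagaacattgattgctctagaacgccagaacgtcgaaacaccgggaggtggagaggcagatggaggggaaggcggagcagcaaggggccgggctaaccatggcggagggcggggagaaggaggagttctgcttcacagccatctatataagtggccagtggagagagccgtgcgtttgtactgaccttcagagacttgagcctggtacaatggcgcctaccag
Pkm: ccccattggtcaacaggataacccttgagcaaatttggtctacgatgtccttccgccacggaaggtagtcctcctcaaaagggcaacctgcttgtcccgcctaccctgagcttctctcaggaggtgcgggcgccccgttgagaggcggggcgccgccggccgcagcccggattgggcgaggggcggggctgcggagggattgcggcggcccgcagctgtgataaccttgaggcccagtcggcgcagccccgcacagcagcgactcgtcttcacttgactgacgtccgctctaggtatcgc
Gapdh: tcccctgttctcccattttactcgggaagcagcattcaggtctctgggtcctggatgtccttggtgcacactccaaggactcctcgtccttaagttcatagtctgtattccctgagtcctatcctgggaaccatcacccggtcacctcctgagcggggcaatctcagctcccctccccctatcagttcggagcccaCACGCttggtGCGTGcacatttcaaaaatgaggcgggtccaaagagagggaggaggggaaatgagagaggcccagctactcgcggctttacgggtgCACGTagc
Slc16a3: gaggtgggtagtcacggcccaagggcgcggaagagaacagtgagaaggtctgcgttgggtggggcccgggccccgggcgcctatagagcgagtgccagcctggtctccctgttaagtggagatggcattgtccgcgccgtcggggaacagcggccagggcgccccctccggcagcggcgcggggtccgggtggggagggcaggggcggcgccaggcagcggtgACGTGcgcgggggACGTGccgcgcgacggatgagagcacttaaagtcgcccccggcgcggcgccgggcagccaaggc
Ldha: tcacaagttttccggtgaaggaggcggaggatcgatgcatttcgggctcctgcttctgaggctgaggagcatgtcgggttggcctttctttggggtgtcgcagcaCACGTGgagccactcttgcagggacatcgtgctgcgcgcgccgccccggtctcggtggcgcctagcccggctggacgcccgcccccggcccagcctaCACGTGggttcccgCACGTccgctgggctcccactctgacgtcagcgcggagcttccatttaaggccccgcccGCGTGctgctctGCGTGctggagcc
The Ldha promoter held 5 separate stretches with the core letters, that of Gapdh 3 and that of Slc16a3 2. Those of Aldoa, Tpi1 and Pkm held none in this window, which says only that these letters are not in these 300 bases. ACGTG or GCGTG occurred in 26 of the 33 member promoters (78.8%), in 64.2% of the 8914 promoters of tested genes and in 43.8% of all 27025 promoters. Taken singly, ACGTG occurred in 57.6% of the member promoters, 26.7% of those of tested genes and 19.7% of all. GCGTG occurred in 57.6%, 52.3% and 32.5%, so for these letters the members lay close to the tested genes. A match is a run of letters and not a measured binding site.

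Tregs of the skin held far more glycolytic transcripts than Tregs of the spleen, whether Pparg was intact or deleted. The 18 enzymes together took 1.25% and 1.33% of all counts in skin for WT and 1.66% and 1.54% for KO, against 0.468% and 0.457% in spleen for WT and 0.451% and 0.427% for KO. In WT, 25 of the 34 tested members were higher in skin and 2 were lower (edgeR, adjusted p under 0.05), where 16.6% of all tested genes were higher and 15.2% lower. In KO, 26 were higher and 3 lower, against 16.3% and 12.7% of all tested genes. The median log2 fold change of the 34 members was 1.33 in WT and 1.73 in KO, and that of all tested genes was -0.04 and -0.03. The libraries of skin and spleen did not overlap for any member called in either genotype. A gene that passes with 2 libraries per group will nearly always show this, so it is no further support. It also held for Slc16a1, Pdk1, Pdk3 and Egln1 in WT, which did not pass. In bulk RNA of this kind, fewer expressing cells and less RNA per cell cannot be told apart.

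**Figure D1:**
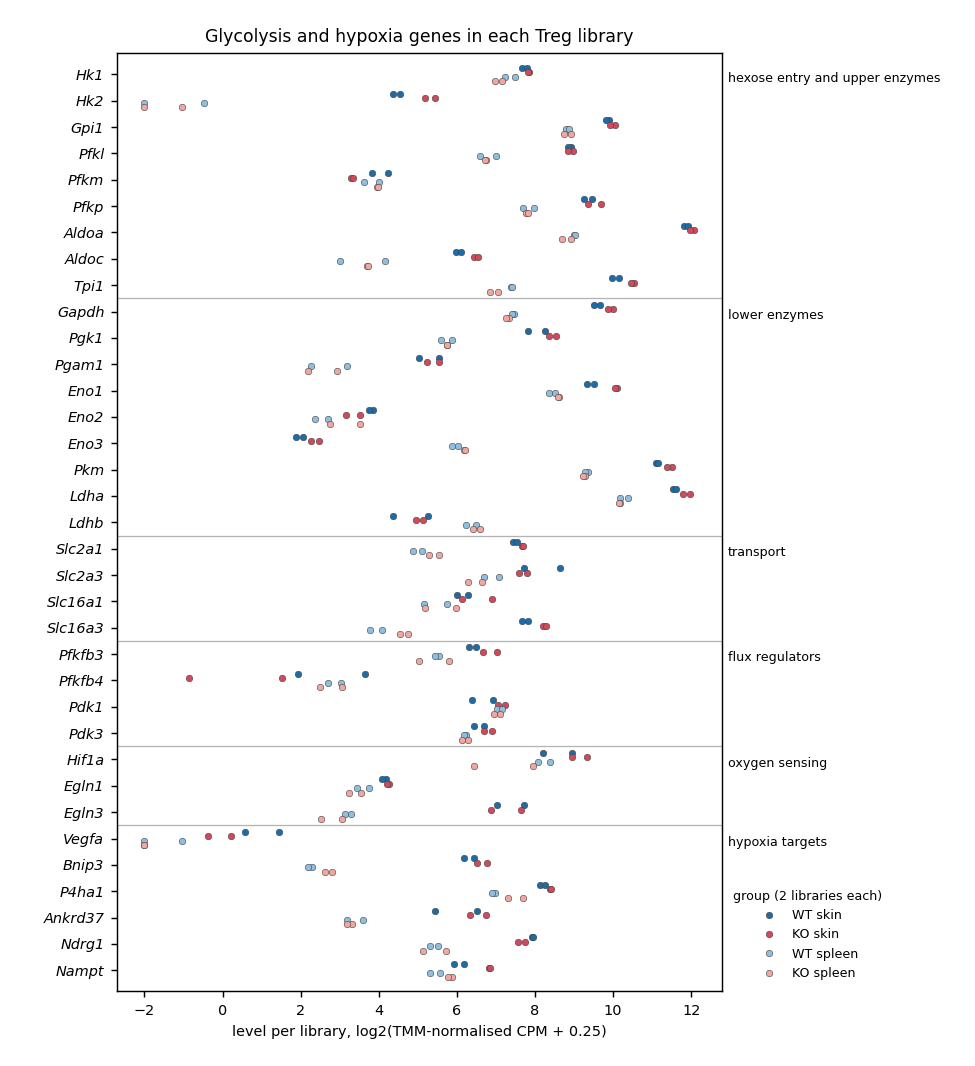
Level of each of the 35 genes in each of the 8 libraries, as log2 of TMM-normalised CPM plus 0.25, grouped by role; each point is a library, and dark points are skin and light points spleen. Most enzymes, Slc16a3, Egln3 and Bnip3 sit well to the right in skin, whereas Eno3 and Ldhb sit to the right in spleen.

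Of the 9 genes of hexose entry and the upper steps, 8 were higher in skin in each genotype. In what follows, values in brackets with ± are log2 fold changes of skin over spleen with an approximate standard error (SE). Aldoa, the main aldolase of most tissues, stood at 3620 and 3855 CPM in skin for WT and 4303 and 4038 for KO, and 516 and 517 in spleen for WT and 482 and 413 for KO. Skin exceeded spleen by a log2 fold change of 2.85 ± 0.0946 in WT and 3.22 ± 0.0961 in KO (adjusted p = 4.68e-13 and 1.89e-13). Tpi1, triose phosphate isomerase, which interconverts the 2 trioses that aldolase releases, stood at 996 and 1131 CPM in skin for WT and 1492 and 1417 for KO, and 167 and 169 in spleen for WT and 132 and 116 for KO, with log2 fold changes of 2.66 ± 0.108 in WT and 3.55 ± 0.113 in KO. Hexokinase 2, the inducible hexokinase gene Hk2, was almost confined to the skin libraries. It reached 20.2 and 23.1 CPM in WT skin and 43.1 and 36.2 in KO skin, and the 4 spleen libraries held 3 reads of it in all. A ratio of skin to spleen was taken over pooled counts, scaled by total counts and not by the TMM factors behind the CPM. It was 69.8 in WT (147 against 2 reads, 95% exact interval 19.0 to 582) and 268 in KO (283 against 1 read, interval 47.8 to 10630). These intervals cover counting error only, and Hk2 entered the test only through its skin libraries. Hk1, the constitutive hexokinase, differed far less, at 202 and 220.3 CPM in skin for WT and 232 and 225 for KO, and 149.8 and 180.3 in spleen for WT and 141 and 126 for KO (0.36 ± 0.131 in WT and 0.77 ± 0.132 in KO).

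Gpi1, glucose-6-phosphate isomerase, stood at 947 and 907 CPM in skin for WT and 1057 and 973 for KO, and 441 and 469 in spleen for WT and 483 and 425 for KO. The phosphofructokinase genes commit hexose to glycolysis, and their liver-type gene Pfkl stood at 487 and 462 CPM in skin for WT and 501 and 462 for KO, and 95.5 and 127 in spleen for WT and 107 and 104 for KO. The platelet-type gene Pfkp stood at 606 and 706 CPM in skin for WT and 829 and 658 for KO, and 208 and 253 in spleen for WT and 219.6 and 227 for KO. Skin was higher for all 3, by 1.03, 2.09 and 1.51 on the log2 scale in WT and by 1.16, 2.18 and 1.73 in KO. The muscle-type gene Pfkm did not pass in either genotype, at 18.8 and 13.9 CPM in skin for WT and 9.51 and 9.96 for KO, and 15.7 and 12.02 in spleen for WT and 15.1 and 15.7 for KO (adjusted p = 0.643 and 0.183). Aldoc, the brain-type aldolase, was a minor aldolase in both tissues yet higher in skin, at 63.1 and 68.0 CPM in skin for WT and 86.4 and 92.9 for KO, and 17.6 and 7.73 in spleen for WT and 12.7 and 13.1 for KO (2.30 ± 0.276 in WT and 2.75 ± 0.276 in KO).

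Among the 9 enzymes of the lower steps, 7 were higher and 2 lower in skin in WT, and 6 were higher and 2 lower in KO. Gapdh, the dehydrogenase of glyceraldehyde phosphate, stood at 734 and 815 CPM in skin for WT and 1018 and 932 for KO, and 176 and 169 in spleen for WT and 161 and 153 for KO (2.17 ± 0.107 in WT and 2.63 ± 0.109 in KO). Pgk1, which makes ATP in the next step, stood at 227 and 304 CPM in skin for WT and 374 and 330 for KO, and 48.2 and 58.1 in spleen for WT and 53.4 and 53.9 for KO (2.31 ± 0.159 in WT and 2.703 ± 0.159 in KO). Skin libraries exceeded spleen libraries several-fold for both genes. Pgam1, phosphoglycerate mutase, stood lower than either, at 32.6 and 46.3 CPM in skin for WT and 37.3 and 46.2 for KO, and 8.89 and 4.58 in spleen for WT and 4.32 and 7.36 for KO (2.43 ± 0.347 in WT and 2.72 ± 0.351 in KO). Pkm, the pyruvate kinase gene, stood at 2177 and 2285 CPM in skin for WT and 2921 and 2658 for KO, and 655 and 627 in spleen for WT and 617 and 598 for KO (1.80 ± 0.0879 in WT and 2.20 ± 0.0891 in KO). Its deposited count does not separate the M1 and M2 splice forms. Ldha, the lactate dehydrogenase subunit that favours lactate formation, was the most abundant lower enzyme, at 2986 and 3152 CPM in skin for WT and 4002 and 3565 for KO, and 1336 and 1152 in spleen for WT and 1149 and 1132 for KO (1.30 ± 0.0916 in WT and 1.73 ± 0.0926 in KO).

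The 3 enolase genes behaved differently from each other. Eno1, the ubiquitous enolase, was higher in skin, at 642 and 729.9 CPM in skin for WT and 1087 and 1051 for KO, and 367 and 330.3 in spleen for WT and 393 and 384 for KO (0.97 ± 0.102 in WT and 1.46 ± 0.103 in KO). Eno3, the enolase known from muscle, was the member most strongly lower in skin, at 3.45 and 3.91 CPM in skin for WT and 5.29 and 4.53 for KO, and 64.6 and 58.4 in spleen for WT and 72.0 and 73.5 for KO (-3.89 ± 0.271 in WT and -3.75 ± 0.259 in KO, adjusted p = 5.27e-09 and 4.94e-09). Its spleen libraries lay far above all skin libraries, and the skeletal muscle markers Acta1, Ckm, Tnnt3 and Myh4 were at or below 5.22 CPM everywhere. Acta1 was at 3.45 and 2.49 CPM in WT skin and at or below 1.64 CPM in every other library, whereas Tnnt3 stood at 3.45 and 1.42 CPM in skin for WT and 2.11 and 2.41 for KO, and 4.21 and 3.72 in spleen for WT and 2.97 and 5.22 for KO, and their part in the Eno3 difference was not tested. Eno2, the neuronal enolase, was low throughout, at 14.1 and 13.2 CPM in skin for WT and 8.72 and 11.2 for KO, and 4.91 and 6.30 in spleen for WT and 6.47 and 11.2 for KO; it was higher in WT skin than WT spleen (1.21 ± 0.416, adjusted p = 0.0338) and did not pass in KO. Ldhb, the subunit that favours lactate oxidation, was the other enzyme lower in skin, at 20.5 and 38.1 CPM in skin for WT and 34.9 and 30.5 for KO, and 75.3 and 89.0 in spleen for WT and 96.3 and 84.9 for KO (-1.496 ± 0.243 in WT and -1.45 ± 0.239 in KO).

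**Figure D2:**
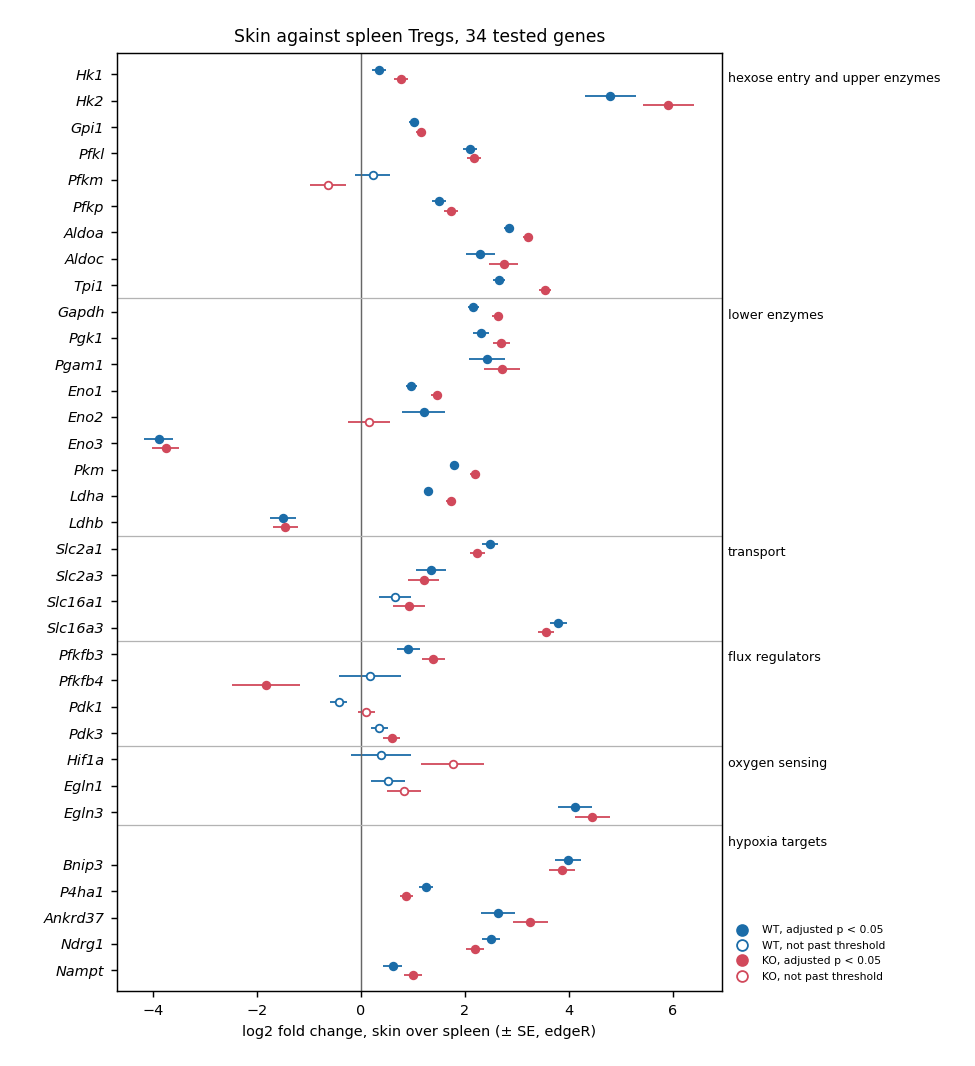
Log2 fold change of skin over spleen with its approximate standard error for the 34 tested genes, in WT (blue) and KO (red). Filled points passed an adjusted p of 0.05. Most points lie right of 0 in both genotypes, with Eno3 and Ldhb to the left.

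The balance within enzyme families differed between the tissues. Shares were computed per library from reads divided by exon length, as a description with no test. They do not correct for reads that match more than 1 gene. For Eno1, 29.4% of the 25-base windows of its transcripts also occur in another gene, and for Eno3 0.282%. The size of a share is uncertain for that reason. Eno3 made up 1.30% to 1.60% of enolase reads per base in skin and 34.9% to 36.5% in spleen. Ldhb made up 1.43% to 2.48% of lactate dehydrogenase in skin and 10.6% to 15.02% in spleen. Enolase and lactate dehydrogenase transcripts were mixed in spleen, and in skin nearly all were Eno1 and Ldha. Hk2 contributed 12.5% to 13.1% of the 2 hexokinases in WT skin, 18.7% to 21.0% in KO skin and at most 0.445% in spleen. Pfkm contributed 2.04% to 4.53% of phosphofructokinase in skin and 8.67% to 13.6% in spleen, while the share of Pfkl was 53.7% to 59.0% and 41.4% to 45.8%. Aldoc stayed a small part of aldolase everywhere, at 1.53% to 2.01% in skin and 1.32% to 2.95% in spleen. The transporter pair Slc16a1 and Slc16a3 changed places, with Slc16a3 at 67.2% to 78.8% in skin and 20.6% to 38.1% in spleen. The share of Slc2a1 over Slc2a3 overlapped between the tissues, at 47.7% to 69.1% and 34.3% to 50.7%.

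**Figure D3:**
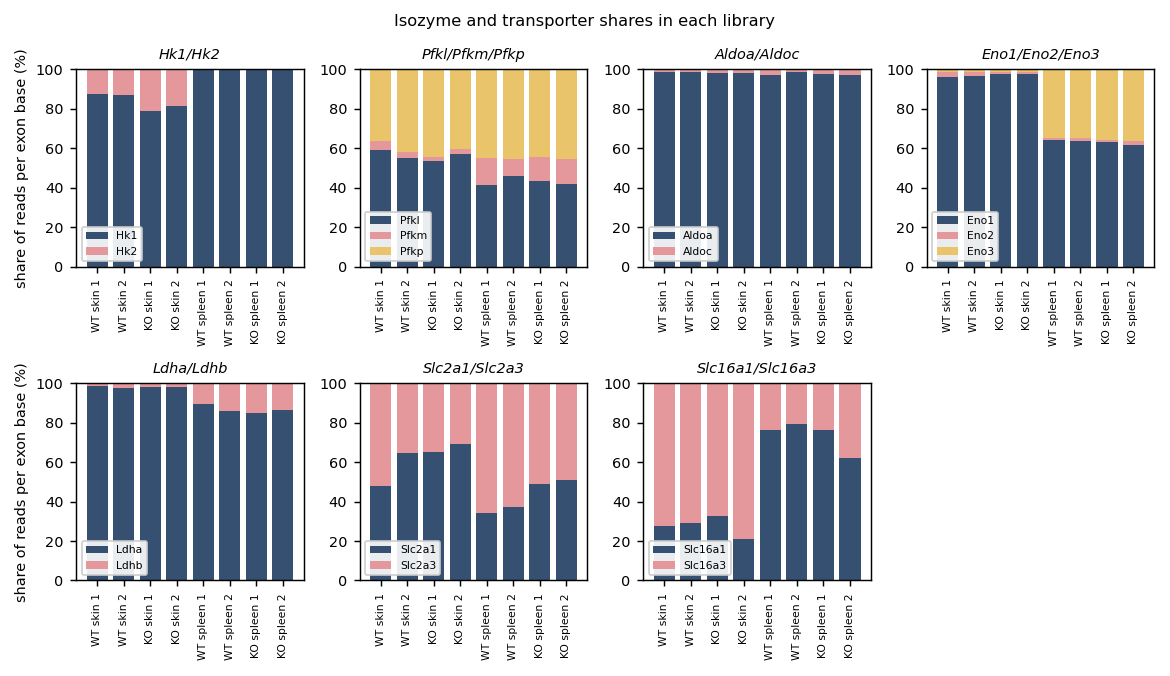
Share of each isozyme or transporter in the reads per exon base of its family, in percent, as stacked bars for each of the 8 libraries. Eno3 and Ldhb take a visible share only in the 4 spleen libraries, and Hk2 only in the 4 skin libraries.

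Levels between genes can be compared only per length. Even then the comparison is rough, because genes differ in how many of their 25-base windows also occur in another gene. That share was 55.2% for Pgk1, 38.0% for Pkm, 24.1% for Ldha, 17.5% for Aldoa and 0 for Slc16a3. The order given here is that of the deposited counts as they stand. In WT skin, Aldoa (1284 mean CPM per kb of exon) and Ldha (927) stood highest among the members, followed by Pkm (446) and Tpi1 (387). In WT spleen the highest was Ldha (376), followed by Aldoa (177) and Pkm (128). Aldoa has 2 gene records of the same symbol in GENCODE M21, and its length is that of the record at chr7:126795234-126800751. At the lower end in WT skin, above the untested Vegfa, were Pfkfb4 (1.63), Eno3 (2.12), Eno2 (2.89) and Hk2 (3.63).

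Of the 4 transporters, 3 were higher in skin in WT and all 4 in KO. Slc16a3, the monocarboxylate transporter MCT4 that exports lactate, stood at 202 and 226 CPM in skin for WT and 292 and 312 for KO, and 13.3 and 16.6 in spleen for WT and 23.2 and 26.8 for KO (3.80 ± 0.166 in WT and 3.56 ± 0.158 in KO). Slc16a1, the related transporter MCT1, differed less, at 63.6 and 77.2 CPM in skin for WT and 119 and 69.7 for KO, and 35.6 and 53.2 in spleen for WT and 62.9 and 36.3 for KO; it passed in KO (0.93 ± 0.304, adjusted p = 0.0388) and not in WT (0.66 ± 0.309, 0.128), where it did with no low-count filter (0.00627) and in a fit to the compared groups only (0.039), over a range of 0.00627 to 0.496. Slc2a1, the glucose transporter GLUT1, stood at 174 and 186 CPM in skin for WT and 202 and 207 for KO, and 33.9 and 29.2 in spleen for WT and 46.7 and 38.9 for KO (2.49 ± 0.155 in WT and 2.24 ± 0.151 in KO). Slc2a3, the glucose transporter GLUT3, stood at 395 and 210 CPM in skin for WT and 221 and 191 for KO, and 134 and 102 in spleen for WT and 99.8 and 78.0 for KO (1.35 ± 0.293 in WT and 1.21 ± 0.296 in KO). WT skin replicate 1 stood apart from the other 3 skin libraries for Slc2a3.

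Of the 4 regulators of flux, 1 was higher in skin in WT, and 2 were higher and 1 lower in KO. Pfkfb3, which makes the activator of phosphofructokinase, was higher in skin, at 90.3 and 79.0 CPM in skin for WT and 130.3 and 101 for KO, and 46.3 and 42.9 in spleen for WT and 55.3 and 32.5 for KO (0.92 ± 0.222 in WT and 1.40 ± 0.221 in KO). Pfkfb4, an isoform of the same bifunctional enzyme, was at 12.3 and 3.56 CPM in skin for WT and 2.64 and 0.302 for KO, and 7.96 and 6.30 in spleen for WT and 5.39 and 8.07 for KO, and was lower in skin in KO (-1.83 ± 0.651, adjusted p = 0.0439) but not in WT (adjusted p = 0.85). Its skin values rest on 50, 10, 10 and 1 counts. Pdk1 and Pdk3 encode kinases that limit the oxidation of pyruvate within the mitochondrion by inhibiting pyruvate dehydrogenase. Pdk1, a well-known HIF target, did not pass in either genotype, at 83.4 and 121 CPM in skin for WT and 131 and 149.9 for KO, and 129.6 and 142 in spleen for WT and 123 and 138 for KO (-0.42 ± 0.165 in WT and 0.11 ± 0.163 in KO). In WT it passed as lower in skin under upper-quartile scaling (adjusted p = 0.0399), with a replicate block (0.0332) and without WT skin replicate 2 (0.00691), over a range of 0.00691 to 0.527. Pdk3 passed in KO (0.60 ± 0.16, adjusted p = 0.00931) and not in WT (adjusted p = 0.105), at 86.6 and 103 CPM in skin for WT and 104 and 118 for KO, and 75.1 and 72.7 in spleen for WT and 77.2 and 69.3 for KO.

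Among the genes of oxygen sensing, the transcript of the sensor Egln3 differed strongly and the other 2 did not pass. Egln3, a prolyl hydroxylase that is itself induced by HIF, stood at 129 and 208 CPM in skin for WT and 118 and 200 for KO, and 9.60 and 8.59 in spleen for WT and 8.09 and 5.46 for KO (4.13 ± 0.331 in WT and 4.45 ± 0.342 in KO, adjusted p = 1.68e-06 and 1.29e-06). Egln1, the main oxygen sensor of most cells, was low and stood at 18.01 and 16.7 CPM in skin for WT and 19.0 and 18.4 for KO, and 13.1 and 10.6 in spleen for WT and 9.17 and 11.4 for KO (adjusted p = 0.236 and 0.0663). Hif1a stood at 295 and 497 CPM in skin for WT and 491 and 643 for KO, and 272 and 331 in spleen for WT and 247 and 86.6 for KO (0.39 ± 0.581 in WT and 1.77 ± 0.598 in KO, adjusted p = 0.677 and 0.105). The KO spleen libraries differed widely from each other for Hif1a. Hif1a passed in KO with DESeq2 on all 8 libraries (adjusted p = 0.0123) and without KO spleen replicate 1 (0.00549), in a range over the alternatives of 0.00549 to 0.295.

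All 5 tested hypoxia targets were higher in skin in both genotypes. Bnip3, a mitophagy receptor, stood at 72.3 and 86.8 CPM in skin for WT and 91.4 and 108 for KO, and 4.68 and 4.29 in spleen for WT and 6.74 and 5.93 for KO (3.99 ± 0.253 in WT and 3.87 ± 0.242 in KO). Ankrd37, an ankyrin repeat gene induced by hypoxia, stood at 43.2 and 91.8 CPM in skin for WT and 79.8 and 107 for KO, and 8.89 and 11.7 in spleen for WT and 9.71 and 8.78 for KO (2.64 ± 0.331 in WT and 3.27 ± 0.333 in KO). Ndrg1, a stress-induced gene, stood at 240.5 and 246 CPM in skin for WT and 190.3 and 215 for KO, and 39.8 and 45.5 in spleen for WT and 34.8 and 52.9 for KO (2.50 ± 0.175 in WT and 2.19 ± 0.173 in KO). For all 3 the lowest skin library lay several-fold above the highest spleen library. P4ha1, a collagen prolyl hydroxylase subunit, stood at 278 and 305 CPM in skin for WT and 335 and 339.7 for KO, and 126 and 118 in spleen for WT and 208 and 159 for KO (1.25 ± 0.136 in WT and 0.88 ± 0.133 in KO). Nampt, the rate-limiting enzyme of NAD salvage, stood at 60.9 and 73.0 CPM in skin for WT and 113 and 114 for KO, and 39.5 and 47.5 in spleen for WT and 58.5 and 54.3 for KO (0.61 ± 0.182 in WT and 1.00 ± 0.177 in KO). Vegfa was nearly silent, with counts of 5 and 7 for WT and 2 and 3 for KO in skin, and of 1 and 0 for WT and 0 in both libraries for KO in spleen. There a count of 0 allows up to 3 counts, or 0.809 and 0.712 CPM.

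Of the 27 calls in WT, 23 kept their side of the threshold in every alternative analysis run, and of the 29 calls in KO, 25 did. The exceptions in WT were Hk1 (adjusted p up to 0.324, without WT spleen replicate 1), Eno2 (up to 0.184, without WT spleen replicate 1), Slc2a3 (0.07 without WT spleen replicate 2) and Nampt (0.136 without WT spleen replicate 1 and 0.108 without WT skin replicate 2). Hk1 in WT was also lost under upper-quartile scaling (0.0816), DESeq2 (0.0649), no low-count filter (0.0622) and a fit to the compared groups only (0.0563), and without WT skin replicate 1 (0.0654), WT skin replicate 2 (0.183), KO skin replicate 1 (0.0607) or KO skin replicate 2 (0.0577). Eno2 was also lost with DESeq2 (0.0547), with no low-count filter (0.053) and without WT skin replicate 1 (0.118), WT skin replicate 2 (0.0754) or WT spleen replicate 2 (0.0799). In KO they were Slc2a3, Slc16a1, Pfkfb4 and Pdk3. Slc2a3 was lost without any library of the KO groups (0.0509 to 0.122), Slc16a1 without KO skin replicate 1 or KO spleen replicate 2 (0.318 and 0.221), and Pdk3 without KO skin replicate 2 or KO spleen replicate 2 (0.0845 and 0.0758). Pfkfb4 was lost without KO skin replicate 2, any WT spleen library or any KO spleen library (0.0565 to 0.267).

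Other readouts moved with the tissue. The 10 immediate-early and heat shock genes that mark tissue dissociation and handling summed to 11490 to 16560 CPM in the skin libraries and 570.6 to 670.8 CPM in spleen. Junb made up most of each skin sum, lying between 7621 and 11820 CPM there. Its highest spleen value was 382.9 CPM, in WT replicate 2. Of these 10, 8 were higher in skin in WT, and 9 were higher and 1 lower in KO. Those called higher include Hspa1a, Hspa1b and Atf3, which entered the test only through skin libraries, where they are high. No spleen library held a read of Hspa1a or Hspa1b, and Atf3 had 0 and 4 spleen counts for WT and 0 and 2 for KO. All 8 proliferation markers were higher in skin in both genotypes, summing to 2165 to 2493 CPM against 816 to 953 CPM. The part of either in the glycolytic differences was not tested. Reads of 25 bases can match processed pseudogenes, of which glycolytic genes have many. The share of 25-base windows of the annotated transcripts that also occur in another gene was 60.2% for Bnip3, 55.2% for Pgk1, 38.0% for Pkm and for Ldhb, 37.5% for Pgam1, 29.4% for Eno1, 29.0% for Gapdh, 24.2% for Gpi1, 24.1% for Ldha, 17.5% for Aldoa and 14.8% for Tpi1. For the hypoxia target Ankrd37 it was 23%. The counts of all these genes are uncertain for that reason. Slc16a3, Egln1, Egln3 and Nampt shared no window.

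Fewer members passed for the loss of Pparg than for the tissue. Values with ± are from here on log2 fold changes of KO over WT with an approximate SE. In skin, 3 of the 34 tested members were higher in KO than in WT and none was lower, where 0.306% of all tested genes were higher and 0.588% lower. They were Eno1 (0.64 ± 0.101, adjusted p = 0.00395), Tpi1 (0.45 ± 0.101, 0.0395) and Nampt (0.76 ± 0.176, 0.0499). For each of them both KO skin libraries lay above both WT skin libraries, with Nampt at 60.9 and 73.0 CPM in WT and 113 and 114 in KO. In spleen no member passed with edgeR, where 0.00806% of all tested genes (1 gene) were higher and 0.274% lower. There 6 members had an unadjusted p under 0.05, and DESeq2 called 1 of them, P4ha1 (adjusted p = 0.0295, range over the alternatives 0.00472 to 0.512). Of all 12414 tested genes, 972 had an unadjusted p under 0.05 in spleen with edgeR. The median log2 effect of the 34 members was 0.26 in skin and -0.04 in spleen, beside 0.01 and 0.00 over all tested genes.

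The enzymes with the next smallest p in skin were Pkm (0.32 ± 0.0851, adjusted p = 0.101), Ldha (0.30 ± 0.09, 0.152), Gapdh (0.33 ± 0.101, 0.167) and Pgk1 (0.41 ± 0.146, 0.274), none of which passed. Their KO skin libraries lay above the WT skin libraries without overlap, as the values above show. With 2 libraries per group such separation carries little weight for any member. It also held for Hk1 and Gpi1 (edgeR adjusted p = 0.831 and 0.692). Hk2 also had higher values in KO skin without overlap (0.86 ± 0.346, adjusted p = 0.346). Over the 18 enzymes the skin effect was above 0 for 16 and its median was 0.24, but only Eno1 and Tpi1 passed. Among the transporters Slc16a3 had the smallest p in skin (0.50 ± 0.136, 0.112), among flux regulators Pfkfb4 (-2.08 ± 0.654, 0.184) and among genes of oxygen sensing Hif1a (0.52 ± 0.578, 0.838). The 2 WT skin libraries differed from each other for Pfkfb4 (50 and 10 counts), and its fold change rests on low counts.

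In spleen the smallest p-values belonged to P4ha1 (0.58 ± 0.135, adjusted p = 0.105), Slc16a3 (0.73 ± 0.177, 0.111) and Tpi1 (-0.44 ± 0.106, 0.112). The KO spleen libraries lay above WT spleen for the first and second of these and below it for Tpi1, without overlap. As in skin, such separation carries little weight with 2 libraries per group. Slc2a1 (0.43 ± 0.16, 0.44), Hk1 (-0.30 ± 0.132, 0.578) and Aldoa (-0.21 ± 0.0893, 0.577) followed and did not pass. The smallest p among lower enzymes was that of Eno1 (0.16 ± 0.102, 0.817), among flux regulators that of Pdk1 (-0.06 ± 0.162, 0.983) and among genes of oxygen sensing that of Hif1a (-0.86 ± 0.59, 0.854). Over the 18 enzymes the median effect in spleen was -0.06, with 7 above 0.

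**Figure D4:**
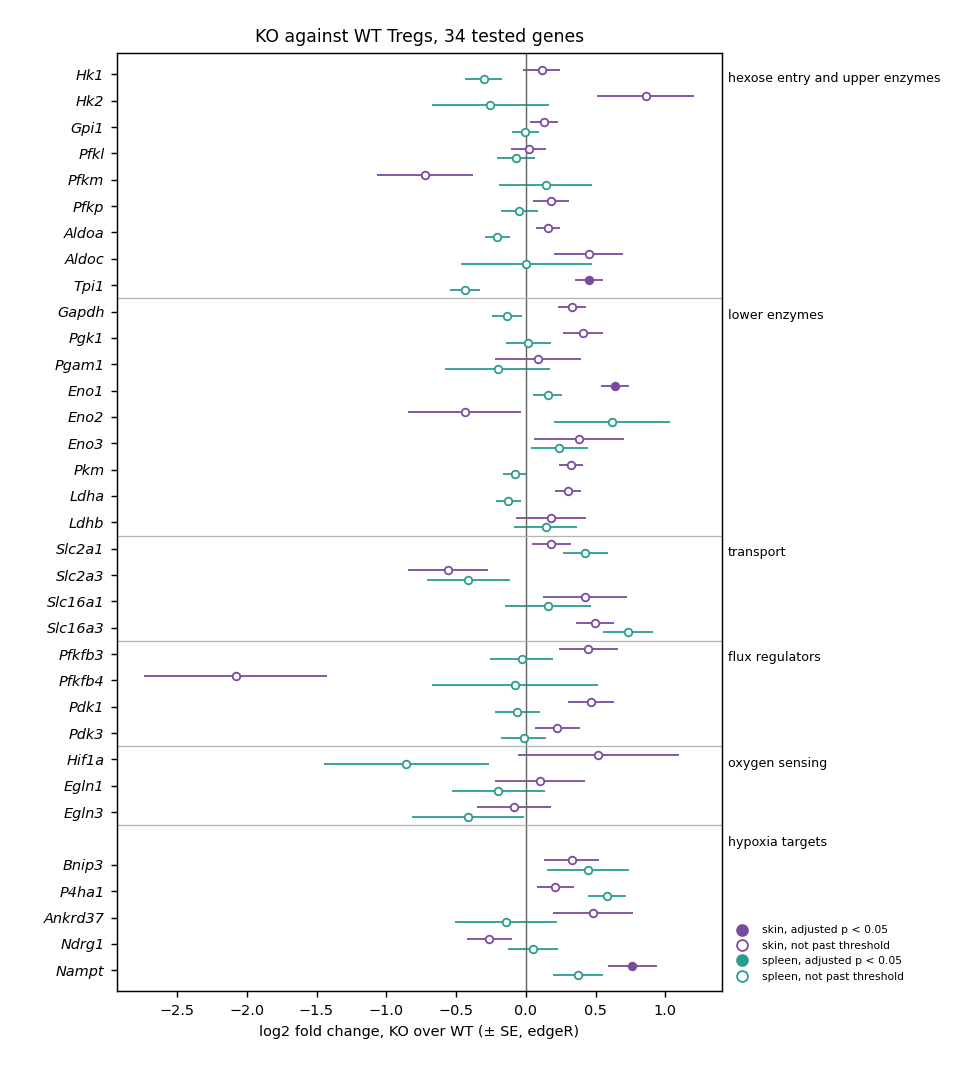
Log2 fold change of KO over WT with its approximate standard error for the 34 tested genes, in skin (purple) and spleen (green). Filled points passed an adjusted p of 0.05. Filled points are Tpi1, Eno1 and Nampt in skin, and Tpi1 lies right of 0 in skin and left of 0 in spleen.

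Averaged over both tissues, 3 members were higher in KO and none was lower, where 0.298% of all tested genes were higher and 0.491% lower. Eno1 was higher by 0.40 ± 0.0717 (adjusted p = 0.0107), Slc16a3 by 0.61 ± 0.112 (0.0114) and Nampt by 0.57 ± 0.127 (0.0428). Slc16a3 did not pass in either tissue alone, and its KO libraries lay above the WT libraries of the same tissue in skin and in spleen. P4ha1 did not pass (0.40 ± 0.0944, adjusted p = 0.064, range over the alternatives 0.00461 to 0.214), but did under upper-quartile scaling (0.0422), with DESeq2 (0.0351), with no low-count filter (0.00461) and without KO spleen replicate 2 (0.0238). Among the other roles the smallest p belonged to Pfkfb4 for flux regulators (-1.08 ± 0.431, 0.392), Pfkm for upper enzymes (-0.29 ± 0.238, 0.79) and Egln3 for oxygen sensing (-0.25 ± 0.238, 0.843), and none of these passed. The average uses the same libraries as the comparisons within each tissue and is no further evidence for them.

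Tpi1 was the member whose genotype effect differed between the tissues. Its skin effect minus its spleen effect was 0.89 ± 0.146 on the log2 scale (adjusted p = 0.0202), where 0.0725% of all tested genes had a positive and 0.0242% a negative difference that passed. It was higher in KO in skin (996 and 1131 CPM in WT, 1492 and 1417 in KO) and had lower values in KO in spleen (167 and 169 in WT, 132 and 116 in KO). For Eno1 (0.48 ± 0.143, adjusted p = 0.205), Ldha (0.43 ± 0.128, 0.213), Pkm (0.40 ± 0.121, 0.224), Gapdh (0.47 ± 0.146, 0.244) and Aldoa (0.36 ± 0.125, 0.303) the difference was also above 0 and did not pass. Over the 18 enzymes 16 differences were above 0 and the median was 0.38, beside 0.01 over all tested genes. The smallest p among transporters was that of Slc2a1 (-0.24, 0.791), among flux regulators that of Pfkfb4 (-2.00, 0.469), among genes of oxygen sensing that of Hif1a (1.38, 0.712) and among hypoxia targets that of P4ha1 (-0.37, 0.565).

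**Figure D5:**
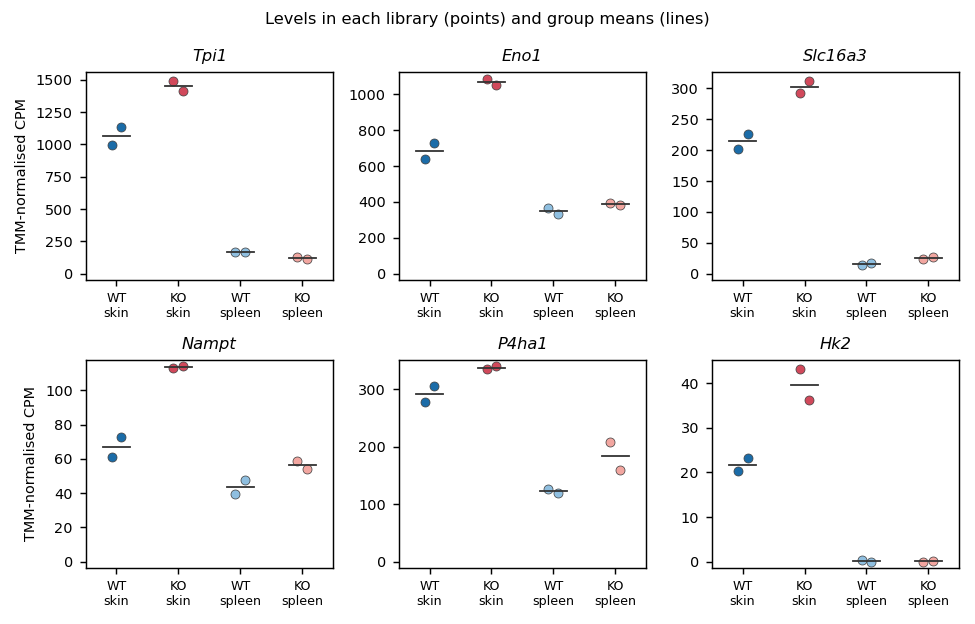
TMM-normalised CPM of Tpi1, Eno1, Slc16a3, Nampt, P4ha1 and Hk2 in each library (points) with the group mean (line), by genotype and tissue; the axes start at 0. The KO skin points lie above the WT skin points in all 6 panels, and the KO spleen points of Tpi1 lie below the WT spleen points. The 6 genes are a selection that includes the members called between genotypes, so their shared direction in skin is no further support. Among members not drawn, Pfkm, Eno2, Pfkfb4 and Ndrg1 had KO skin below WT skin, and others such as Pfkl, Pfkp and Hif1a overlapped.

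None of these genotype calls held in every alternative. In skin, the call of Eno1 was lost when replicate 1 of either skin group was left out (adjusted p = 0.0683 for WT and 0.0549 for KO, range over the alternatives 4.87e-06 to 0.0683). That of Tpi1 was lost without WT skin replicate 1, either KO skin library or either WT spleen library (0.0609 to 0.358), and that of Nampt without those same libraries (0.0574 to 0.39) and with RLE scaling (0.053). On the other hand, Slc2a3 and Pfkfb4 passed as lower in KO skin with all libraries and no low-count filter (0.0153 and 0.0342) and without WT skin replicate 2 (0.00792 and 0.0493), and Pdk1 passed as higher without that library (0.0366). Slc2a3 also passed as lower averaged over the tissues in the same pair of alternatives (0.00119 and 0.00597). Averaged over the tissues, Eno1 was lost without KO skin replicate 1 or WT spleen replicate 2 (0.0526 and 0.0777), Slc16a3 without replicate 2 of either KO group or replicate 1 of WT spleen (0.052, 0.077 and 0.09), and Nampt without any library but WT skin replicate 2 (0.0728 to 0.202). The difference for Tpi1 was lost without any library but WT skin replicate 2 or KO spleen replicate 1 (0.0604 to 0.113), and its size stayed between 0.79 and 0.98 over all alternatives. Without a low-count filter P4ha1 (0.00472), Slc16a3 (0.0212) and Tpi1 (0.0401) passed in spleen. Beside these effects in skin, the handling genes Jun (-1.06 ± 0.243, adjusted p = 0.0474) and Atf3 (-1.77 ± 0.289, 0.00519) were lower in KO skin. Of the whole list of 10 handling genes 9 had values below 0, with a median of -0.61 beside 0.01 over all tested genes. With edgeR, 6 of the 10 had an unadjusted p under 0.05, beside 1342 of all 12414 tested genes. Among those that did not pass were Hspa1a (-0.64 ± 0.143, 0.0575) and Fos (-0.76 ± 0.181, 0.09). None of the 8 proliferation markers passed in any genotype comparison with edgeR, and 0 of them had an unadjusted p under 0.05. The part of the handling genes was not tested.

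For the wider pathway, values with ± are again of skin over spleen. Its genes were read from a list of 63 genes, of which 62 were in the table and 48 were tested. In WT, 14 were higher and 3 lower in skin, where 16.6% of all tested genes were higher and 15.2% lower. In KO, 13 were higher and 1 lower, against 16.3% and 12.7% of all tested genes. Of the other hypoxia targets 8 of 11 tested were higher in WT and 9 of 11 in KO. Of these, Ak4 and Plod2 entered the test only through skin libraries, as did Slc2a6 of the glucose handling genes. Bhlhe40, a transcriptional repressor induced by hypoxia and by T cell activation, stood at 202 and 235 CPM in skin for WT and 378 and 322 for KO, and 14.7 and 17.5 in spleen for WT and 11.9 and 8.78 for KO (3.72 ± 0.175 in WT and 5.02 ± 0.186 in KO). Mxi1, an antagonist of Myc, differed by 2.06 ± 0.224 in WT and 1.68 ± 0.222 in KO, and Tfrc, the transferrin receptor, by 2.53 ± 0.218 in WT and 2.13 ± 0.22 in KO. Ddit4, an inhibitor of mTORC1, differed by 1.62 ± 0.265 in WT, and the cytokine gene Mif by 1.499 ± 0.17 in KO. Each is named for 1 genotype because at most 4 genes per role and comparison are given. In the other genotype both also had higher values in skin. Ddit4 in KO stood at 43.3 and 41.9 CPM against 19.2 and 14.2, and Mif in WT at 98.2 and 122 against 59.0 and 48.65. Among other genes of glucose handling, the transporter gene Slc2a8 (1.74 ± 0.254 in WT and 1.19 ± 0.25 in KO) and phosphoglucomutase Pgm1 (1.13 ± 0.261 in KO) were higher in skin, and the ADP-dependent glucokinase Adpgk was lower in WT (-1.09 ± 0.206). The transporter gene Slc2a6 had 17 and 13 counts in skin for WT and 17 and 32 for KO, and 1 and 2 in spleen for WT and 0 and 11 for KO.

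Other steps lead pyruvate and glucose elsewhere. Another 9 tested genes act in pyruvate import into mitochondria or in pyruvate dehydrogenase and its control. Of these, Pdha1 was higher in WT skin (0.39 ± 0.106) and the kinase gene Pdk2 lower in KO skin than KO spleen (-1.38 ± 0.405). In the pentose phosphate pathway, which branches off from glucose-6-phosphate, G6pdx was lower (-0.87 ± 0.207) and Taldo1 higher (0.33 ± 0.11) in WT skin. None of its 7 genes passed in KO with edgeR. There 1 of the 7 had an unadjusted p under 0.05, beside 4863 of all 12414 tested genes. Egln2, the remaining Egln prolyl hydroxylase, was lower in WT skin (-1.84 ± 0.298), opposite in sign to Egln3. The 2 WT skin libraries differed from each other, at 15.5 and 36.7 CPM, against 99.2 and 85.3 in WT spleen. Unlike Egln3, it did not pass in KO, at 53.4 and 56.7 CPM in skin and 63.7 and 47.9 in spleen. Among regulators, the transcription factor gene Irf4 (1.91 ± 0.178 in WT and 1.79 ± 0.178 in KO) and Rptor, a subunit of mTORC1 (0.52 ± 0.186 in WT and 0.71 ± 0.186 in KO), were higher in skin.

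Between genotypes, 1 gene of the list passed in skin and none in spleen, averaged over the tissues or for the difference. With edgeR, 3 of the 48 tested genes had an unadjusted p under 0.05 in spleen, 2 in the average and 5 for the difference. Of all 12414 tested genes, 972, 1172 and 1178 did so in these comparisons. In skin Bhlhe40 was higher in KO than in WT (log2 fold change 0.68 ± 0.144, adjusted p = 0.0302). Ak4, an adenylate kinase of mitochondria induced by hypoxia, was picked out after its values were seen. It stood at 1.48 and 1.78 CPM in WT skin (6 and 5 counts) and 13.7 and 12.7 in KO skin (52 and 42 counts), and did not pass. It entered the test only through KO skin, where it is high, and had 1 read over the 4 spleen libraries.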

How the data were processed

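Per the labels' protocols, RNA of 1000 sorted cells per library was primed with oligo(dT), amplified by limited PCR, tagmented and sequenced as paired reads of 25 bases. The authors deposited a table of whole-number read counts, 1 line per gene symbol, with no normalisation. STAR 2.7.3a, featureCounts and the mm10 build are named in the submitters' processing notes. Which annotation, strand option and rule for multi-mapping reads were used is not given in the sources used here.

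Counts were tested with edgeR 4.0.16 (R 4.3.3): TMM scaling, filterByExpr with a minimum count of 10, a robust quasi-likelihood fit with 1 coefficient per group over all 8 libraries, and Benjamini-Hochberg adjustment over 12414 genes with a threshold of 0.05. Fold changes use a prior count of 2, which shrinks those of low genes. The value after ± is the size of the fold change divided by the square root of the test's F statistic. It is an approximate standard error and is unreliable for genes with few counts. The common biological coefficient of variation was 17.5%. There were 6 comparisons, which share libraries: the genotype effect in skin, that in spleen, their mean, their difference, and the tissue effect for WT and for KO. Alternatives were RLE and upper-quartile scaling, DESeq2 1.42.0, no low-count filter, only the compared groups, a replicate block and leaving out each library. With limited PCR and no molecular identifiers, intervals cover counting error only.

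Exon lengths and positions come from GENCODE M21, promoters from RefSeq. Members called anywhere, and the member of smallest p in each role and comparison, are named with their values, as are up to 4 called genes per role and comparison of the surrounding pathway. The members, lists and tests were chosen with earlier results of these data known. The labels do not say that the replicate numbers pair the samples, although same-numbered libraries share sex.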

Additional observations from a re-analysis of the deposited data

Results flagged for a closer look

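The genotype effect on Tpi1 differed between the tissues by a tested interaction. The effect of KO in skin minus that in spleen was 0.89 on the log2 scale (edgeR adjusted p = 0.0202). Both KO skin libraries lay above WT skin and both KO spleen libraries below WT spleen. The spleen effect alone did not pass (edgeR adjusted p = 0.112). The call of the difference held in only 7 of 13 alternatives, with a size between 0.79 and 0.98.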

How the results depend on the processing

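The numbers of members called between tissues stayed within 24 to 27 in WT and 25 to 30 in KO over all alternatives, beside 27 and 29 as reported. No member that was called reversed its sign in any alternative. For KO against WT in skin the count of 3 became 5 with no low-count filter and ranged from 0 to 6 when a library was left out, the 0 coming from the fits that omit replicate 1 of WT or of KO skin. In spleen the count of 0 became 1 with DESeq2 and 3 with no low-count filter. Averaged over the tissues, the count of 3 became 5 with no low-count filter and ranged from 1 to 4 when a library was left out. For the difference between tissues the count of 1 ranged from 0 to 1. Leaving out a library leaves a lone sample in its group, which is then assumed to vary like the other groups. Scaling moved the median of all genes by less than 0.1. With a replicate block the counts were 3, 0, 3, 1, 27 and 29, in the order in which the comparisons were described in the methods. In WT the block ended the call of Hk1 (adjusted p = 0.0501) and added that of Pdk1 (0.0332) between tissues. Same-numbered libraries share sex, and the labels give no further pairing. The correlations of replicate deviations between groups were 0.028 to 0.112 (-0.032 to 0.052 without sex-linked genes). Depth limits the genes with few counts, namely Hk2 in spleen, Vegfa, Pfkfb4 and Eno2.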
